A study of Mus musculus with 6 samples.

Results

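The 7 genes described here are the core of store-operated calcium entry in the mouse, namely the channel genes Orai1, Orai2 and Orai3, the sensor genes Stim1 and Stim2 and the inhibitor gene Saraf, together with Thy1, the gene from which the transgene cassette of these mice was built. They were chosen by symbol in the GRCm38 annotation (Ensembl 95, GENCODE M21). All 7 were among the 54838 genes of the count table, and none of the 7 was lost to the minimum count, after which 19087 genes remained for testing. The study asked which transcripts differ between hippocampi of wild-type mice and of FVB/NJ-Tg(Orai1)Ibd mice. Polyadenylated RNA from 1 hippocampus sample per mouse was sequenced for 3 wild-type and 3 transgenic females aged 7 months. FVB/NJ is the strain of the transgenic line, and the labels name no strain for the wild-type mice. The transgene is a human ORAI1 coding sequence placed in a modified mouse Thy1.2 expression cassette, which is active mainly in neurons, and the transgenic libraries all come from this single line. Because the alignment was made to mouse sequence, fragments of the human sequence were counted on mouse Orai1 only as far as they aligned there, and the counts do not separate cassette transcripts from those of the mouse genes. Where a gene differs in such whole-tissue RNA, fewer cells of a type and less RNA per cell cannot be told apart.

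Store-operated calcium entry refills the endoplasmic reticulum (ER) after its calcium has been released. STIM proteins sit in the ER membrane, sense the loss of luminal calcium, cluster at junctions with the plasma membrane and open ORAI channels there, and SARAF turns the coupling off again. STIM2 responds to small falls in ER calcium and STIM1 to large ones, and in neurons of the hippocampus STIM2 has been tied to the calcium entry that maintains dendritic spines. ORAI1 is the main pore of the current in lymphocytes, while ORAI2 and ORAI3 form channels of their own or mix with ORAI1. THY1 is an abundant glycoprotein on the surface of neurons and of T cells, and its regulatory sequences are widely used to drive transgenes in neurons.

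The sequences below show how alike the members of each family are in a closely matching stretch, because reads of a family member can be miscounted on another only where they resemble each other. For the channels, a window of 76 bases, the read length, was taken from the coding sequence of the principal GENCODE M21 transcripts, around the first membrane-spanning helix that lines the pore. The window is the closest match of Orai1 with Orai2, and Orai3 was then placed against that of Orai1. Capitals mark the 62 bases shared by all 3 genes. The Orai1 stretch lies on the plus strand at chr5:123015513-123029096, the Orai2 stretch on the minus strand at chr5:136150931-136161540 and the Orai3 stretch on the plus strand at chr7:127770163-127773578, and each runs across a splice junction, so that the genomic interval also contains an intron.
Orai1: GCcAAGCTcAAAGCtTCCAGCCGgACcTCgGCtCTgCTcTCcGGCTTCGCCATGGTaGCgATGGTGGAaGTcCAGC
Orai2: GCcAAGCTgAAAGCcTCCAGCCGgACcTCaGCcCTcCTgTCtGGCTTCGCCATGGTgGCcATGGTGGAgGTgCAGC
Orai3: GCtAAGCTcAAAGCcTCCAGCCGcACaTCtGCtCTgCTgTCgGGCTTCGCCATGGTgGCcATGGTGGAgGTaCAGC

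For the sensors, the window lies in the cytosolic region through which STIM proteins bind and open ORAI channels, and capitals mark the 62 bases shared by both genes. The Stim1 stretch is within a single exon at chr7:102426045-102426120 and the Stim2 stretch within a single exon at chr5:54109775-54109850, both on the plus strand.
Stim1: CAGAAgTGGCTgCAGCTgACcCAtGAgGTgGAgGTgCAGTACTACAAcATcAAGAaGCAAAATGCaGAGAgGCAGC
Stim2: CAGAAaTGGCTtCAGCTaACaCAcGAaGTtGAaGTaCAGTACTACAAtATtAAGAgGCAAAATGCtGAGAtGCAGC

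Aligned without gaps over the coding sequences, no window of 76 bases came closer than 11 mismatches between Orai1 and Orai2, 10 between Orai1 and Orai3, 8 between Orai2 and Orai3 and 14 between Stim1 and Stim2. The longest identical runs were 18, 17, 29 and 15 bases for the same pairs. These comparisons cover coding sequence only, which is 753 of the 3908 bp of the principal Orai2 transcript, while reads also fall in untranslated regions, and reads shortened by trimming were not considered. The human ORAI1 sequence was not analysed here, and whether any of its reads were counted on Orai2 or Orai3 was not tested.

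Counts on genes summed to between 37710188 and 52497799 fragments in wild-type and between 37414241 and 47027279 in transgenic libraries, and TMM scaling factors lay between 0.992 and 1.00. The genotypes were compared gene by gene with the quasi-likelihood test of edgeR, and p-values were adjusted by Benjamini and Hochberg's method. An adjusted p under 0.05, called passing the test below, was reached by 7.10% of the tested genes, 3.10% being higher in transgenic mice, and 27.8% had an unadjusted p under 0.05. With GC offsets, which remove the trend of the counts with the GC content of transcripts in each library, 2.16% passed. The groups did not overlap in 34.9% of the genes tested. All 16 of a list of choroid plexus markers, the epithelium next to the hippocampus that secretes cerebrospinal fluid, were lower in transgenic mice, with a summed level of 3937 to 6092 CPM (normalised counts, relative to the scaled library total) in wild-type and 561 to 877 CPM in transgenic libraries. Among them Ttr, the transthyretin gene, had a mean of 3146 CPM in wild-type libraries against 288 CPM in the transgenic ones, and Folr1, a folate receptor gene, of 21.97 against 2.89 CPM. The 12 pan-neuronal markers other than Thy1 summed to 8960 to 9386 CPM in wild-type and 9109 to 9182 CPM in transgenic libraries. The libraries also differed in a way the genotypes do not explain. Gfap, which encodes an astrocyte filament protein, was at 323 and 355 CPM in wild-type mice 1 and 2 and at 386 CPM in transgenic mouse 1, but at 836 CPM in wild-type mouse 3 and at 922 and 840 CPM in transgenic mice 2 and 3. Within the first of these sets of 3 libraries the log2 ratio of mean CPM, transgenic over wild-type, was 5.45 for Orai1, 0.24 for Orai2, 0.21 for Orai3, -0.09 for Stim1, 0.01 for Stim2, 0.17 for Saraf and 2.52 for Thy1. Within the second it was 5.32, 0.17, 0.23, -0.07, 0.11, 0.07 and 2.66 for the same genes. These sets were chosen after the values were seen, each has a genotype with a single mouse, and no test was made within them. The median log2 fold change was -0.04 in the decile of GC content that holds Stim2 and 0.13 in the decile that holds Orai1. Values with GC offsets are therefore given below for the smaller changes of the 7 genes and of named pathway genes. They are not given for neighbouring or correlated genes.

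Of the 7 genes, Orai1 and Thy1 had an adjusted p under 0.05, both higher in transgenic mice (2 of 7, against 7.10% of all genes tested). The 2 genes also ranked first and second of all 19087 tested in log2 fold change. The other 5 genes of the machinery did not pass the test, and their estimates lay between -0.10 and 0.21 on the log2 scale. In 6 of the 7 genes the groups did not overlap, with higher transgenic values for 5 and lower ones for 1, against 16.9% higher and 17.9% lower among all genes tested. The plot of levels by library shows these differences beside the spread between mice.

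**Figure D1:**
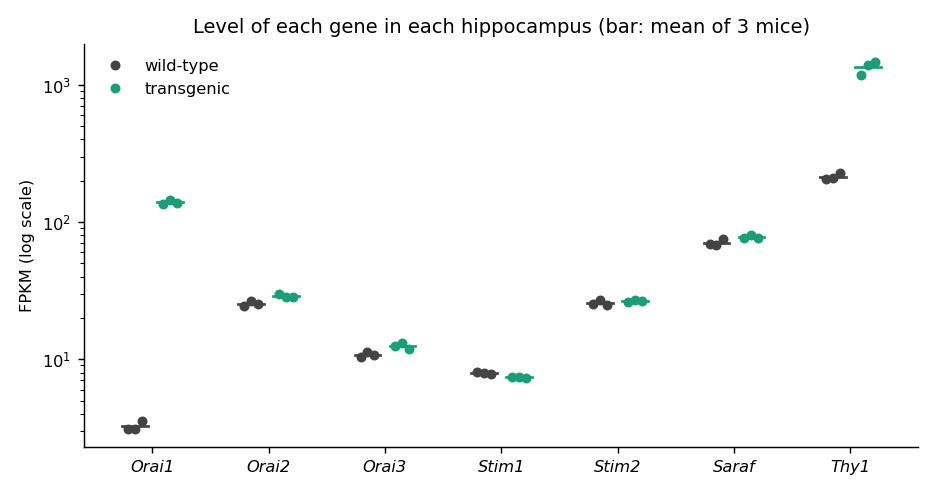
Level of each of the 7 genes as FPKM on a logarithmic axis, with 1 point per mouse, 3 wild-type (grey) and 3 transgenic (green), and a bar at the mean. Orai1 and Thy1 stand apart between genotypes, from 3.26 to 139 FPKM and from 214 to 1346 FPKM, while the points of the other 5 genes lie close together.

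Orai1 (ENSMUSG00000049686, chr5:123015074-123030456, plus strand) encodes the pore-forming subunit that the transgene carries in its human form. It was counted 376, 302 and 306 times in the wild-type and 14620, 12634 and 11834 times in the transgenic libraries. Scaled to the library, its levels were 7.18, 7.16 and 8.08 CPM in wild-type and 313, 331 and 316 CPM in transgenic mice. Every transgenic library thus lay far above every wild-type library, and the 3 transgenic mice differed little among themselves. The mean rose from 7.47 ± 0.528 to 320.2 ± 9.54 CPM (SD, n = 3), a log2 fold change of 5.42 (SE 0.066, edgeR adjusted p = 3.8e-08). In wild-type hippocampus 46.8% of the genes tested had a lower FPKM (fragments relative to exon length and library total) than Orai1, and in transgenic hippocampus 98.9%. The division by length used the 2295 bp of exon of the mouse gene, of which 915 bp are coding in the principal transcript, while the transgene carries a coding sequence only, so the level per length of the transgene itself was not measured.

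Orai2 (ENSMUSG00000039747, chr5:136147459-136170713, minus strand), a channel subunit that is prominent in brain, was the most abundant Orai gene of wild-type hippocampus. Its levels were 148, 162 and 153 CPM in wild-type and 182, 171 and 173 CPM in transgenic mice. All 3 transgenic libraries were above the highest wild-type library, but the gap between 162 and 171 CPM was smaller than the range within either genotype. The log2 fold change was 0.19 (SE 0.050), a difference of 13.8% with a range of 9.87% to 17.8% at 1 SE to either side, and it did not pass the test (edgeR adjusted p = 0.0653, unadjusted p = 0.00677). With DESeq2's Wald test the adjusted p was 0.0218, in a test that called 11.7% of all genes. Among the 1908 genes of the same decile of GC content, the eighth, the median log2 fold change was 0.081, and 75.8% of them had a smaller value than Orai2. With GC offsets its log2 fold change was 0.13 (edgeR adjusted p = 0.190). With the choroid plexus markers as a covariate, a measure that differs between genotypes in every library, it was 0.46 (SE 0.302, edgeR adjusted p = 0.409).

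Orai3 (ENSMUSG00000043964, chr7:127769815-127775150, plus strand), a subunit found in mammals only, was less abundant than Orai2 in every library. It was measured at 22.5, 24.1 and 22.9 CPM in wild-type and at 26.8, 28.1 and 25.5 CPM in transgenic mice. The groups did not overlap, and the transgenic libraries were the higher ones. The log2 fold change of 0.21 (SE 0.060) corresponds to 15.9%, with a range of 11.2% to 20.8% at 1 SE to either side, and it did not pass the test (edgeR adjusted p = 0.0702). It was 0.16 with GC offsets (edgeR adjusted p = 0.179) and 0.09 with the choroid plexus markers as a covariate (SE 0.388, edgeR adjusted p = 0.922). The gene Fbxl19 ends 0.332 kb upstream of Orai3 on the same strand and rose with a log2 fold change of 0.22 (edgeR adjusted p = 0.0321), from 62.6 to 73.1 CPM. Fbxl19 was chosen after its values were seen, and whether transcripts of the 2 genes run into each other was not tested.

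Stim1 (ENSMUSG00000030987, chr7:102267806-102437319, plus strand), the sensor of strong store depletion, was the only gene of the 7 with a lower estimate in transgenic mice. Its levels were 83.8, 81.9 and 80.1 CPM in wild-type and 77.8, 77.0 and 75.2 CPM in transgenic mice. The lowest wild-type library was still above the highest transgenic library, by a gap somewhat wider than any distance between neighbouring mice of a genotype. The log2 fold change was -0.10 (SE 0.041), a change of -6.42% with a range of -9.05% to -3.70% at 1 SE to either side, and it did not pass the test (edgeR adjusted p = 0.182, unadjusted p = 0.0509). The estimate was -0.15 with GC offsets (edgeR adjusted p = 0.103), whereas with offsets for gene length it was 0.02 (edgeR adjusted p = 0.848). With the choroid plexus markers as a covariate, a measure that differs between genotypes in every library, it was 0.12 (SE 0.252, edgeR adjusted p = 0.821). Its sign thus turned with the length offsets (SE 0.046) and with the covariate, but both estimates were smaller than their SE. With 10371 bp of exon Stim1 is the longest of the 7 genes.

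Stim2 (ENSMUSG00000039156, chr5:53998499-54121057, plus strand), the sensor that responds to small losses of ER calcium, was the more abundant of the sensor genes. It was measured at 131, 139 and 127 CPM in wild-type and at 136, 139 and 137 CPM in transgenic mice. The ranges overlapped, since 1 wild-type library reached the level of the highest transgenic library. The log2 fold change was 0.050 (SE 0.046, edgeR adjusted p = 0.525), that is 3.51% with a range of 0.276% to 6.86% at 1 SE to either side. Without offsets 17.3% of the genes tested had a smaller change than Stim2, in either direction. Its log2 fold change was 0.11 with GC offsets (edgeR adjusted p = 0.245) and 0.08 with offsets for gene length (edgeR adjusted p = 0.330).

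Saraf (ENSMUSG00000031532, chr8:34154575-34170821, plus strand), which encodes the ER protein that inactivates STIM after refilling, was the most abundant of the 6 machinery genes in wild-type mice. Its levels were 202, 200.03 and 218 CPM in wild-type and 226, 233 and 226 CPM in transgenic mice. The transgenic libraries were all higher, but the third wild-type library lay closer to them than to the other wild-type libraries. The log2 fold change was 0.14 (SE 0.049), or 10.4% with a range of 6.75% to 14.2% at 1 SE to either side, and it did not pass the test (edgeR adjusted p = 0.109). It was also 0.14 with GC offsets (edgeR adjusted p = 0.144), and 47.4% of all genes tested changed less in either direction. With the choroid plexus markers as a covariate, a measure that differs between genotypes in every library, it was -0.33 with a much wider SE of 0.246 (edgeR adjusted p = 0.470).

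**Figure D2:**
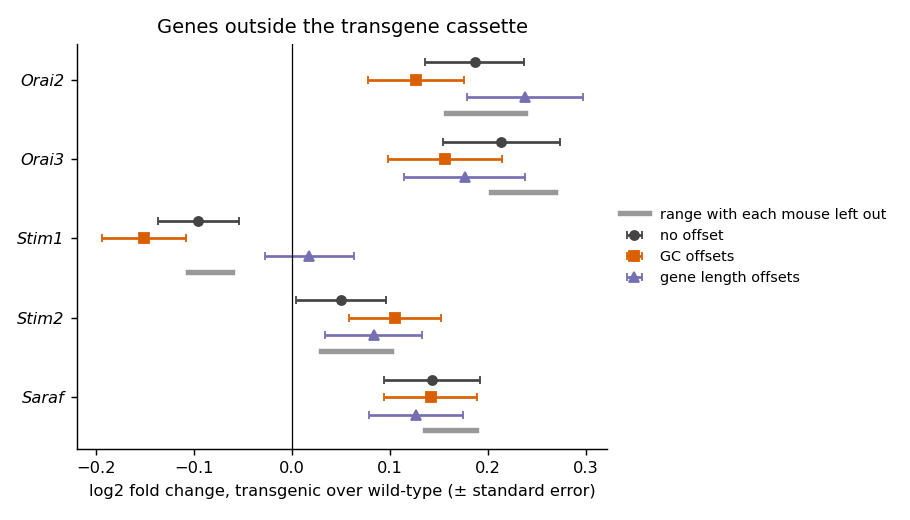
Log2 fold change of the 5 machinery genes other than Orai1, transgenic over wild-type, with standard errors, from edgeR without offsets (grey circles), with GC offsets (orange squares) and with gene length offsets (purple triangles), and the range of estimates when each mouse was left out in turn (grey bars). Estimates of Orai2, Orai3, Stim2 and Saraf are above 0 in all of these fits, and that of Stim1 moves from -0.15 with GC offsets to 0.02 with length offsets.

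Thy1 (ENSMUSG00000032011, chr9:44043384-44048579, plus strand), the surface glycoprotein gene that supplied the cassette, was already among the most abundant transcripts of wild-type hippocampus. Its counts were 32505, 26260 and 25566 in wild-type and 166608, 159110 and 163587 in transgenic libraries. These correspond to 621, 622 and 675 CPM in wild-type and 3572, 4170.1 and 4369 CPM in transgenic mice. Every transgenic library exceeded every wild-type library several times over, and the transgenic mice differed more among themselves than they did for Orai1. The mean rose from 639.6 ± 31.0 to 4037 ± 415 CPM (SD, n = 3), a log2 fold change of 2.66 (SE 0.092, edgeR adjusted p = 5.0e-05). With the choroid plexus markers as a covariate, a measure that differs between genotypes in every library, it was 1.62 (edgeR adjusted p = 0.0563), while Orai1 then kept 4.83 (edgeR adjusted p = 0.0032). Among genes of T cells, the other cells known for Thy1, the T cell receptor subunit genes Cd3e and Cd3g stayed between 0.0214 and 0.236 CPM in all 6 libraries. Of 8 T cell markers 3 had enough counts to be tested, and these summed to at most 6.71 CPM. That sum was in wild-type mouse 2, where Cd4 alone gave 4.36 CPM.

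The amount by which each transgenic library exceeded the wild-type mean was then compared between the 2 genes. For Orai1 the excess was 306, 324 and 309 CPM, and for Thy1 it was 2932, 3530.5 and 3730 CPM. The library with the largest Orai1 excess was not the one with the largest Thy1 excess. The excess on Thy1 was 9.58, 10.9 and 12.1 times that on Orai1, with a mean ratio of 10.9 ± 1.25 (SD, n = 3), so the ratio between the genes varied more than the Orai1 excess itself. Divided by the exonic length of each mouse gene, the excess on Thy1 was 7.34, 8.36 and 9.26 times that on Orai1, with a mean of 8.32 ± 0.959. The cassette joins Thy1 sequence of the mouse with ORAI1 sequence of human origin, and how much of the human sequence aligned to mouse Orai1 was not tested.

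The makeup of the channel family, as counted on the mouse genes, changed accordingly. In transgenic libraries the Orai1 value holds human fragments only as far as they aligned, divided by the exonic length of the mouse gene. The share of the transgene itself was thus not measured. In wild-type libraries Orai2 gave 64.3% ± 0.557, Orai3 27.4% ± 0.245 and Orai1 8.26% ± 0.659 of the summed Orai FPKM (SD, n = 3). In transgenic libraries Orai1 gave 77.1% ± 0.778, Orai2 16.0% ± 0.791 and Orai3 6.92% ± 0.201. The summed level of the 3 genes went from 39.5 ± 1.58 to 180.6 ± 4.59 FPKM, nearly all of the difference being Orai1. Orai2 and Orai3 together amounted to 34.7, 37.9 and 36.0 FPKM in wild-type and 42.2, 41.4 and 40.4 FPKM in transgenic libraries, which did not overlap. Orai2 made up 70.1% ± 0.227 of the sum of Orai2 and Orai3 in wild-type and 69.7% ± 1.33 in transgenic mice. Among the sensors, Stim2 made up 76.5% ± 0.757 of the summed Stim FPKM in wild-type and 78.3% ± 0.356 in transgenic mice, and the sum itself was 33.7 ± 1.16 and 34.0 ± 0.441 FPKM. These shares depend on the length by which counts are divided, in a comparison added after the values were seen. With the longest coding transcript as the length, Stim2 made up 58.8% of the Stim level in wild-type and 61.2% in transgenic libraries, and Orai1 gave 7.47% and 75.1%, Orai2 72.3% and 19.4% and Orai3 20.2% and 5.51% of the Orai level. Without division by length the share of Stim2 was 61.7% and 64.1%, that of Orai1 4.05% and 61.3%, that of Orai2 83.4% and 33.6% and that of Orai3 12.5% and 5.13%.

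Ratios for 5 pairs of genes were computed within each library, which removes the scaling of the library, and compared by an exact two-sided permutation test, whose smallest possible p with 3 mice against 3 is 0.1. The ratio of Orai3 to Stim1 was 1.30, 1.42 and 1.39 in wild-type and 1.67, 1.77 and 1.64 in transgenic libraries. Its mean log2 difference of 0.31 (SE 0.050) was the largest of the 5, and the groups did not overlap. The ratio of Saraf to Stim1 differed by 0.24 (SE 0.059), that of Stim2 to Stim1 by 0.15 (SE 0.039) and that of Orai2 to Stim2 by 0.14 (SE 0.045) on the log2 scale, each again without overlap. For these 4 ratios the exact permutation p was 0.1 and the Benjamini-Hochberg value over the 5 ratios 0.125, and since no outcome could have reached 0.05 with 3 mice against 3, these values say only that the groups were fully separated. How often ratios of other gene pairs separate was not computed, while the groups did not overlap in 34.9% of all single genes tested. Stim1 is in 3 of the 4 ratios, so these are not separate observations. The ratios also do not remove a trend with gene length, and Stim1 is the longest gene. With gene length offsets the log2 fold changes were 0.18 for Orai3, 0.13 for Saraf, 0.08 for Stim2 and 0.02 for Stim1, which lie closer together than the fold changes without offsets, and 0.24 for Orai2. The ratio of Orai2 to Orai3 overlapped between genotypes, with a log2 difference of -0.03 (SE 0.053, exact permutation p = 1.0).

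**Figure D3:**
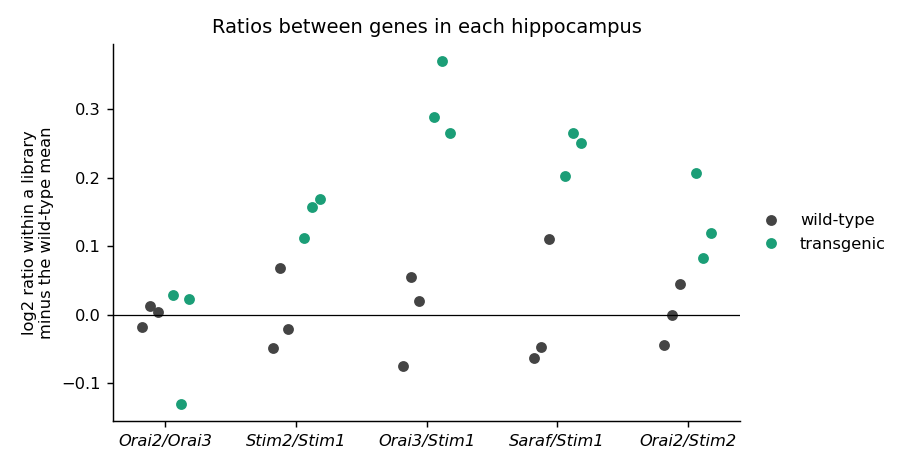
Log2 ratio between pairs of genes within each library, minus the wild-type mean of that ratio, with 1 point per mouse (grey wild-type, green transgenic). The transgenic points lie above all wild-type points in 4 of the 5 ratios, with the largest mean distance, 0.31, for Orai3 to Stim1, while the Orai2 to Orai3 points overlap.

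Ordered by FPKM, wild-type hippocampus had Thy1 (214 ± 10.99) above Saraf (70.6 ± 3.54), Stim2 (25.8 ± 1.12), Orai2 (25.4 ± 1.19), Orai3 (10.8 ± 0.396), Stim1 (7.90 ± 0.152) and Orai1 (3.26 ± 0.239; SD, n = 3). Neighbours in this order did not overlap in any wild-type library, with the exception of Stim2 and Orai2, whose log2 ratio of 0.02 ± 0.044 was smaller than its spread. In transgenic mice Orai1, as counted on the mouse gene (139 ± 4.69 FPKM), stood second, behind Thy1 (1346 ± 145), above Saraf (77.8 ± 1.81) and well above the other genes. Below it the order was Orai2 (28.8 ± 0.845), Stim2 (26.6 ± 0.423), Orai3 (12.5 ± 0.614) and Stim1 (7.38 ± 0.105). The order depends on the length by which counts are divided. With the longest coding transcript in place of all exons, Orai2 (38.7 FPKM) came before Stim2 (26.8) and Stim1 (18.8) before Orai3 (10.8) in wild-type mice, and the same 2 pairs kept this order in transgenic mice.

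Other genes of the pathway were counted from 3 lists. Of 19 genes that regulate STIM and ORAI, all were tested, 1 rose and 1 fell (10.5%, against 7.10% of all genes tested), and the median log2 fold change was 0.04, beside -0.01 over all genes tested. Ormdl3, which encodes an ER regulator of sphingolipid synthesis that also affects calcium stores, rose from 52.98 ± 1.19 to 61.3 ± 0.878 CPM, a log2 fold change of 0.21 (edgeR adjusted p = 0.0349). Efhb, which encodes an EF-hand protein reported to bind STIM1, fell from 1.87 ± 0.261 to 0.717 ± 0.164 CPM, a log2 fold change of -1.37 (edgeR adjusted p = 0.0212). With GC offsets Efhb still passed (-1.27, edgeR adjusted p = 0.0392) and Ormdl3 did not (0.13, edgeR adjusted p = 0.144). None of the 19 passed when wild-type mouse 1 or 2 or transgenic mouse 2 or 3 was left out. The SE of Efhb was 0.217 in the fit without offsets. With the choroid plexus markers as a covariate, a measure that differs between genotypes in every library, Efhb had a log2 fold change of 1.12 (SE 1.19, edgeR adjusted p = 0.662). The cause of its fall was not tested.

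Of 16 genes that tether the ER to the plasma membrane, where STIM meets ORAI, all were tested, 1 rose and 2 fell (18.8%, against 7.10% of all genes), and the median of the list was -0.05 on the log2 scale. Kcnb2, a voltage-gated potassium channel gene of the Kv2 family whose members cluster at these junctions, fell from 26.7 ± 1.57 to 19.0 ± 1.08 CPM, a log2 fold change of -0.49 (edgeR adjusted p = 0.0169). Osbpl3, a gene for an oxysterol-binding lipid transfer protein, fell from 25.04 ± 2.29 to 19.4 ± 1.54 CPM (-0.37, edgeR adjusted p = 0.0491). Gramd1a, a gene for an ER sterol transporter, rose from 116 ± 1.80 to 136 ± 5.83 CPM (0.23, edgeR adjusted p = 0.0353). Without offsets 8 of the 16 had an unadjusted p under 0.05, against 27.8% of all genes tested, and DESeq2 called 7, against 11.7% of all genes. With GC offsets 0 of the 16 passed with edgeR, and the estimates, in the same directions, were -0.30 for Kcnb2, -0.29 for Osbpl3 and 0.16 for Gramd1a (edgeR adjusted p = 0.0562, 0.148 and 0.108). With the choroid plexus markers as a covariate Osbpl3 turned to 0.89 (SE 0.364, edgeR adjusted p = 0.190). In the same fit Kcnb2 was at -0.97 and Gramd1a at 0.45 (SE 0.429 and 0.278, edgeR adjusted p = 0.223 and 0.375). The count was 0 without wild-type mouse 1 or transgenic mouse 3, 1 without wild-type mouse 2 or transgenic mouse 2, and 4 without transgenic mouse 1.

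TRPC channels, nonselective cation channels that have been linked to store depletion, were measured for 6 of 7 genes. Trpc2 had no counts in any library. With edgeR 0 of the 6 passed the test, while 3 had an unadjusted p under 0.05, all lower in transgenic mice (against 27.8% of all genes tested in either direction), and DESeq2 called 3, also lower (against 11.7%). The median log2 fold change of the 6 genes was -0.24. Trpc4 was at 62.6, 57.1 and 55.8 CPM in wild-type and at 51.1, 50.2 and 46.4 CPM in transgenic mice (-0.25, edgeR adjusted p = 0.0557), and Trpc1 at 56.6, 51.1 and 49.6 and at 43.8, 46.5 and 44.7 CPM (-0.22, edgeR adjusted p = 0.0701). Trpc5, which was not among the 2 smallest p-values and is named because its estimate was the lowest, was at 18.6, 15.5 and 14.1 CPM in wild-type and at 13.4, 9.49 and 9.32 CPM in transgenic mice (-0.58, edgeR adjusted p = 0.0702). In these 3 genes the groups did not overlap, against 34.9% of all genes tested. With GC offsets the values were -0.19 for Trpc4, -0.13 for Trpc1 and -0.54 for Trpc5 (edgeR adjusted p = 0.155, 0.260 and 0.127). The choroid plexus markers as a covariate, which differs between genotypes in every library, gave 0.21 for Trpc4 and -0.04 for Trpc1. The SE was then 0.372 and 0.404 (edgeR adjusted p = 0.779 and 0.965).

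**Figure D4:**
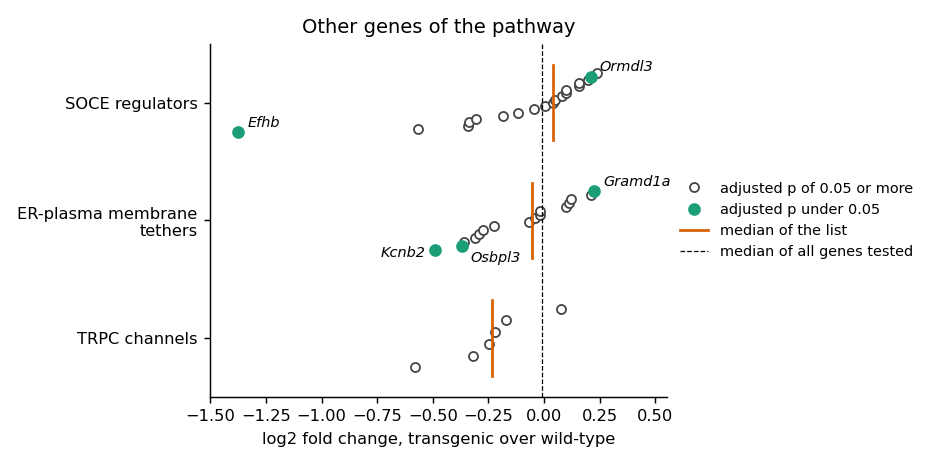
Log2 fold change, transgenic over wild-type, of each tested gene in 3 lists (19 regulators, 16 tethers and 6 TRPC channels), filled green where the edgeR adjusted p was under 0.05, with the median of each list (orange line) and of all genes tested (dashed line at -0.01). Efhb at -1.37 lies far from the other regulators, and 5 of the 6 TRPC channels lie below 0.

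The genes next to Orai1 and Thy1 are described as the surroundings of the mouse genes. The cassette was introduced by injection into the pronucleus and its site of insertion was not analysed here, so these values bear on the mouse loci and not on the surroundings of the transgene. Within 100 kb of Orai1 the annotation holds 11 genes, of which 7 were tested and 0 passed with edgeR, with log2 fold changes between -0.83 and 0.23. Of the 7, 2 had an unadjusted p under 0.05, a share like the 27.8% of all genes tested, namely Morn3 (-0.83, edgeR unadjusted p = 0.0244) and Rhof (0.18, edgeR unadjusted p = 0.0285), and DESeq2 and limma-voom called 0. Gm2479, whose start overlaps that of Orai1 on the other strand, had 1 count in wild-type and 0 in transgenic libraries. Within 100 kb of Thy1 lie 17 genes, of which 8 were tested and 1 passed, against 7.10% of all genes, while 2 had an unadjusted p under 0.05, against 27.8%. The gene that passed was Mfrp, a gene for a frizzled-related membrane protein, which starts 53.2 kb downstream of Thy1 and fell from 20.4 ± 4.34 to 1.45 ± 0.661 CPM, a log2 fold change of -3.80 (edgeR adjusted p = 0.0020). The median over the choroid plexus markers was -2.65. With them as a covariate, which differs between genotypes in every library, the value of Mfrp was 0.66 (SE 0.876, edgeR adjusted p = 0.702). Without it the SE was 0.314, and the cause of the fall of Mfrp was not tested. The nearest tested neighbours of Thy1 were Gm39323, 2.33 kb upstream, at 0.48 (edgeR adjusted p = 0.231), and Usp2, a ubiquitin protease gene 18.4 kb downstream, at -0.23 (edgeR adjusted p = 0.0827).

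**Figure D5:**
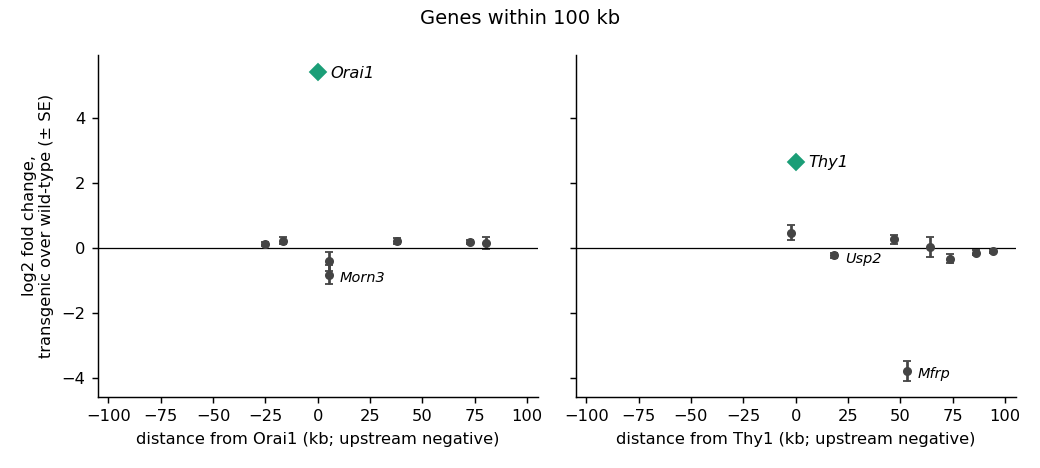
Log2 fold change with standard error of tested genes within 100 kb of Orai1 (left) and Thy1 (right), by distance in kb (0 is the gene itself, upstream is negative). The 7 neighbours of Orai1 lie between -0.83 and 0.23 and those of Thy1 between -0.33 and 0.48, with the exception of Mfrp at -3.80, while Orai1 and Thy1 (green) stand at 5.42 and 2.66.

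Around the other 5 genes, 3 neighbours within 100 kb passed the test, all higher in transgenic mice, out of the numbers tested given below and against 7.10% of all genes. These were Polr2j, an RNA polymerase II subunit gene 24.5 kb from Orai2 (0.33, edgeR adjusted p = 0.0487), and, near Orai3, Fbxl19 and 9430064I24Rik (0.53, edgeR adjusted p = 0.0467), named after their values were seen. Tested neighbours numbered 8 for Orai2 and 11 for Orai3, and their log2 fold changes had medians of 0.21 and 0.09. With edgeR 0 neighbours passed among 4 tested for Stim1, 3 for Stim2 and 3 for Saraf, while 1 at Stim1 and 1 at Stim2 had an unadjusted p under 0.05, against 27.8% of all genes, and DESeq2 called 0.

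Genes whose log2 CPM followed each of the 7 most closely over the 6 libraries were listed by Pearson's r, as a description without a test. The 6 points fall into the 3 wild-type and the 3 transgenic libraries, and r ignores the size of a change, so genes with small differences can match Orai1 closely. For Orai1 these were Lzts3 (r = 0.998), Nostrin and Rab24 (both 0.997), with log2 fold changes of only 0.25, 0.43 and 0.20, and for Thy1 they were Bod1 (0.999), Lzts3 (0.998) and Hgh1 (0.997). Stim1 was followed by Usp32 (0.998), Gspt1 (0.995) and Gad2 (0.995), and Gad2, which encodes a GABA-synthesizing enzyme, fell from 178 to 124 CPM (-0.52, edgeR adjusted p = 0.0272). Orai2 was matched by Rpl29, Gm47135 and Gm16286 (0.999, 0.999 and 0.996), Orai3 by Ankrd23, H2afz and Gm13436 (0.999, 0.997 and 0.995), and Saraf by Aar2, Gm17322 and Gm6969 (each 0.995). The closest genes for Stim2, Aanat, Gpr4 and 2900076A07Rik, reached only 0.978, 0.977 and 0.976, and 10 genes had an r over 0.95 with Stim2, compared with 446 for Orai1 and 299 for Stim1.

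Other marker lists were compared between genotypes. Of the 12 pan-neuronal markers 1 rose, Uchl1 (0.27, edgeR adjusted p = 0.0487), which did not pass with GC offsets (0.19, edgeR adjusted p = 0.144), and the median of the list was 0.02 on the log2 scale. Rbfox3, the gene of the neuronal nuclear protein NeuN, was measured at 201 ± 16.9 CPM in the wild-type and at 199 ± 20.6 CPM in the transgenic group, and Snap25, a synaptic fusion gene, at 1882 ± 6.40 and 1913 ± 44.2 CPM. Neurod2 and Slc17a7 rose among 11 excitatory neuron markers, a list that shares Rbfox3, Snap25, Syt1 and Map2 with the pan-neuronal list (edgeR adjusted p = 0.0239 and 0.0356), and neither passed with GC offsets (0.0606 and 0.105). No astrocyte, microglia, oligodendrocyte or thalamus marker passed with edgeR among 6, 6, 6 and 7 tested, while 2 microglia markers were higher and 1 thalamus marker lower at an unadjusted p under 0.05 and DESeq2 called 1 of each. Over all genes tested these shares were 7.10% with an adjusted p under 0.05, 27.8% unadjusted and 11.7% with DESeq2, and the counts in these short lists are to be read against them. Of the 6 endothelial markers 1 rose, Cldn5, and 1 fell, Slco1c1 (edgeR adjusted p = 0.0430 and 0.0301), and neither passed with GC offsets (0.101 and 0.190). The part of these shifts in the values of Orai2, Orai3, Stim1 and Saraf was not tested beyond the fits with offsets and with the choroid plexus covariate.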

How the data were processed

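RNA from the hippocampus of 3 wild-type and 3 FVB/NJ-Tg(Orai1)Ibd mice was measured by RNA sequencing with paired reads of 76 bases. Per the file headers, the authors deposited counts of fragments per gene, not normalized, made with featureCounts 1.5.0-p1 on mm10 with the reversely stranded setting, after trimming with Trimmomatic and alignment with STAR, and they deposited the exonic length of each gene beside them. Of the 54838 genes, 54723 were matched to GENCODE M21, from which symbols, transcripts and GC content were taken. The 6 libraries were grouped by their labels. Genes were filtered in edgeR with filterByExpr (minimum count 10), libraries were scaled by TMM, and the quasi-likelihood test of edgeR was applied between genotypes over all genes, with Benjamini-Hochberg adjustment and a threshold of 0.05. FPKM were computed from counts, exonic lengths and library totals. Within-library ratios were compared by exact permutation tests. GC and length offsets came from loess curves (span 0.5). Each mouse was left out in turn, and the replicate number was added as a block in an alternative model.

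Genes named are the 7, their neighbours within 100 kb at Orai1 and Thy1, list genes that passed (where none did, the 2 with the smallest p), the 3 genes most correlated with each of the 7, and the first 2 of the marker lists, of which those lists without a named gene are given by counts. Polr2j, Fbxl19, 9430064I24Rik and Trpc5 were named outside this rule, after their values were seen. The genes and lists were chosen with earlier results of these data known. Nothing in the labels says that the mice came from separate litters or that RNA was prepared on separate days. The fits were tested on simulated data. Versions were R 4.3.3, edgeR 4.0.16, limma 3.58.1, DESeq2 1.42.0, Python 3.11.15, numpy 2.4.6, pandas 2.3.3, scipy 1.17.1 and matplotlib 3.10.9.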

Additional observations from a re-analysis of the deposited data

How the results depend on the processing

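Orai1 stayed past the threshold in all 19 alternative fits, and Thy1 in 18. With the choroid plexus covariate, which separates the genotypes almost as the groups do, Thy1 had a log2 fold change of 1.62 (edgeR adjusted p = 0.0563), so that 1 of the 7 genes passed, while Saraf had -0.33, Stim1 0.12, Orai2 0.46, Orai3 0.09 and Stim2 0.18. Stim1 was 0.017 with gene length offsets, with or without the replicate block. Orai2 passed with DESeq2's Wald test alone, and Orai3, Stim1, Stim2 and Saraf passed under no alternative. With each mouse left out, 2 of the 7 genes always passed, and the cause of the other shifts was not tested.

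Over all genes, 1355 passed by the reported fit, 2230 with DESeq2's Wald test, 412 with GC offsets, 774 with gene length offsets, 892 with the choroid plexus covariate and 77 to 1149 without 1 mouse. Among the regulators of STIM and ORAI, where 2 passed, 4 passed with DESeq2's Wald test, 1 with GC or gene length offsets, with or without the block, and 0 to 2 without 1 mouse. Among the tethers, where 3 passed, 7 passed with DESeq2's Wald test, 5 without the filter, 0 with GC offsets, 1 with the choroid plexus covariate and 0 to 4 without 1 mouse. Among the TRPC channels, where 0 passed, 3 passed with DESeq2's Wald test, 1 with scaling by total counts, 1 without the filter and 0 to 1 without 1 mouse.

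Deviations of same-numbered mice correlated at 0.399, -0.357 and 0.388 across 11191 genes, so the numbers were not taken to pair the mice. With the replicate block 738 genes passed, 473 with the block and GC offsets and 565 with the block and gene length offsets. Under the block 1 TRPC channel passed, with or without either offset, and 0 tethers passed with either offset. The block changed no call of the 7 genes. Of the regulators and tethers that had passed, Ormdl3 and Gramd1a did not pass with the block (edgeR adjusted p = 0.0664 and 0.0571). Efhb, Kcnb2 and Osbpl3 still did (edgeR adjusted p = 0.0363, 0.0360 and 0.0430).

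Divided by the longest coding transcript, the wild-type log2 ratios were 1.73 for Thy1 to Saraf, 2.05 for Saraf to Stim2, -0.53 for Stim2 to Orai2, 1.84 for Orai2 to Orai3, -0.80 for Orai3 to Stim1 and 2.24 for Stim1 to Orai1. Without division by length they were 1.63, 0.64, -0.22, 2.74, -1.82 and 3.46. The difference between genotypes in the Orai2 to Orai3 ratio ran from -0.054 to 0.026 without 1 mouse, turning positive without transgenic mouse 2. The mean Thy1 to Orai1 ratio of the excess ran from 10.2 to 11.5 without 1 mouse, also when the transgenic mice were left out, an alternative chosen after seeing the data. The lowest count among the 7 genes was 302, for Orai1 in a wild-type library, and counting error is part of the spread between mice. The precision is limited by 3 mice per genotype.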
